A study of Rattus norvegicus with 26 samples.

Results

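The primitive endoderm transcription factors were followed in rat multipotent adult progenitor cells (rMAPCs) that were being turned into smooth muscle cells. The set held 8 genes, chosen by name: *Gata4*, *Gata6*, *Sox17*, *Sox7*, *Foxa1*, *Foxa2*, *Hnf4a* and the endocytic adaptor *Dab2*, which is a classical endoderm gene of the same programme rather than a transcription factor. They were read from Agilent arrays that measured 15466 genes with a symbol, each by its brightest probe over 26 arrays. All 8 genes had a probe, 7 were measured, and *Foxa1* was not well above background on any of the 26 arrays and is left out below.

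Cl19 and 3c3 are Oct4-expressing rMAPC clones from the bone marrow of female Fischer rats, Cl19 from an animal of 3 weeks and 3c3 from an animal labelled E18. Each is 1 clone, so the 3 arrays of a line and day do not stand for 3 animals. Cells of both lines were cultured for 6 days in basal medium with TGFβ1 and PDGF-BB, and RNA was taken on d0 (before differentiation), d2, d4 and d6, with 3 arrays per line and day. The reference was commercial rat aortic RNA per the labels, called primary SMC here, on 2 arrays without stated age, strain or treatment, and the study's methods name another supplier for it.

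Primitive endoderm is the layer that forms beside the epiblast in the blastocyst and gives rise to visceral and parietal endoderm, the extraembryonic tissues that feed the embryo and lay down its thick basement membrane. *Gata6* acts early in this lineage, where FGF signalling favours it over the epiblast programme, and *Gata4*, *Sox17* and *Sox7* follow. *Foxa2* and *Hnf4a* are used in visceral endoderm, and *Hnf4a* also in liver, while *Dab2* carries cargo receptors such as megalin and cubilin into the cell.

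The probes below are a selection of brightest probes, on which the main levels rest, and of second probes. Both *Gata6* probes shown here and the *Sox17* probe carry the falls described below. The *Sox7* probe is the second, dimmer measure of that gene, and the *Hnf4a* probes are the pair that gave different results. They are 60 bases long and are written as on the array, in lower case throughout.
Gata6 brightest, chr18:2512492-2512551: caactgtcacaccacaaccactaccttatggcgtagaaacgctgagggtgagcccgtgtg
Gata6 second, chr18:2534127-2534186: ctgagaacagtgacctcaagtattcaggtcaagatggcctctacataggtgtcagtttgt
Sox17 brightest, chr5:15245984-15246043: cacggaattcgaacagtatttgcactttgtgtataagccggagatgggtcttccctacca
Sox7 second, chr15:43208277-43211816: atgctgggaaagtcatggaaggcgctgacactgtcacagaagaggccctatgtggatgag
Hnf4a brightest, chr3:154464030-154464089: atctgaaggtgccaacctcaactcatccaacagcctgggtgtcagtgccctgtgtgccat
Hnf4a second, chr3:154482699-154482758: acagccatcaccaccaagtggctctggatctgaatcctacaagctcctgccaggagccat
These positions are on the plus strand of rn4, as the array's annotation gives them. The annotated span of the *Sox7* probe is far longer than the probe, so its bases lie on both sides of a gap in the genome. The other members' brightest probes lay at chr15:42473004-42473063 (*Gata4*, minus strand), chr15:43214572-43214631 (*Sox7*, plus), chr3:136739040-136739099 (*Foxa2*, minus) and chr2:55736106-55736165 (*Dab2*, plus), all within transcripts of these genes.

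RefSeq promoter windows on the assembly GRCr8 were at hand for 4 members, *Gata6*, *Foxa2*, *Hnf4a* and *Dab2*, with 5 windows in all since *Hnf4a* has a pair of starts. The 250 bases before each start were searched on both strands for GATAA, the core that GATA factors bind, for ACAAT, a core of Sox sites, and for TGTTTAC, a forkhead site; no match overlapped another. Of 33469 such windows, 23.5% held GATAA, 30.0% held ACAAT and 3.21% held TGTTTAC. Only the upstream *Hnf4a* window held a match among these 5, with GATAA starting 21 bases and ACAAT 104 bases before the start. It is shown for these matches, which are in capitals and are a description of the letters, not of binding.
Hnf4a upstream window, chr3:172605970-172606219, plus strand: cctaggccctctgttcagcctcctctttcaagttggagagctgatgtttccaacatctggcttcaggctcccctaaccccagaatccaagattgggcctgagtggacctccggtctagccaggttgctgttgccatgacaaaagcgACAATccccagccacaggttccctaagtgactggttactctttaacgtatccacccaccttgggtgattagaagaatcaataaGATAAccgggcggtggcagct

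Levels are log2 of the scanner's intensity after quantile normalization, which gives every array the same distribution, and the level of 1 probe cannot be set against that of another. Between 43.2% and 61.4% of gene probes were well above background on an rMAPC array and up to 44.5% on a primary SMC array. Background was higher on the 4 arrays of the third 3c3 replicate (negative control signal 62.6 to 82.0 against 44.9 to 50 elsewhere). The array of Cl19 d2 replicate 1 stood apart from its group: its root mean square distance was 0.312 on the log2 scale to the mean of the 3c3 d2 arrays and 0.848 to the other Cl19 d2 arrays. The values of Cl19 d2 against d0 are therefore given with and without it. Each line was scanned on its own day, as was primary SMC, so that line and scan day cannot be told apart in a comparison of levels, whereas each change from d0 lies within 1 line.

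On d0 both lines held similar levels of the measured factors, and all but *Hnf4a* were bright. *Hnf4a* was dim, with means of 4.3 in Cl19 and 4.38 in 3c3. *Gata4* was at 13.68, 13.53 and 13.61 in Cl19 and at 13.53, 13.46 and 13.55 in 3c3. *Gata6* was at 13.48, 13.16 and 13.05 in Cl19 and at 13.47, 13.38 and 13.70 in 3c3. None of the 7 measured genes differed between the lines on d0 at an adjusted p of 0.05 (limma with Benjamini-Hochberg adjustment over 24442 probes), where 3.07% of all probes did. All 10 genes of a primitive endoderm marker list, which includes 6 of the measured members, were well above background on every d0 array of both lines. Of the 5 epiblast markers with a probe, 2 were, *Pou5f1* (mean 10.28 in Cl19 and 11.53 in 3c3) and *Klf2*. All 10 primitive endoderm markers were also well above background on every later rMAPC array, and 6 of them were on both primary SMC arrays.

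**Figure D1:**
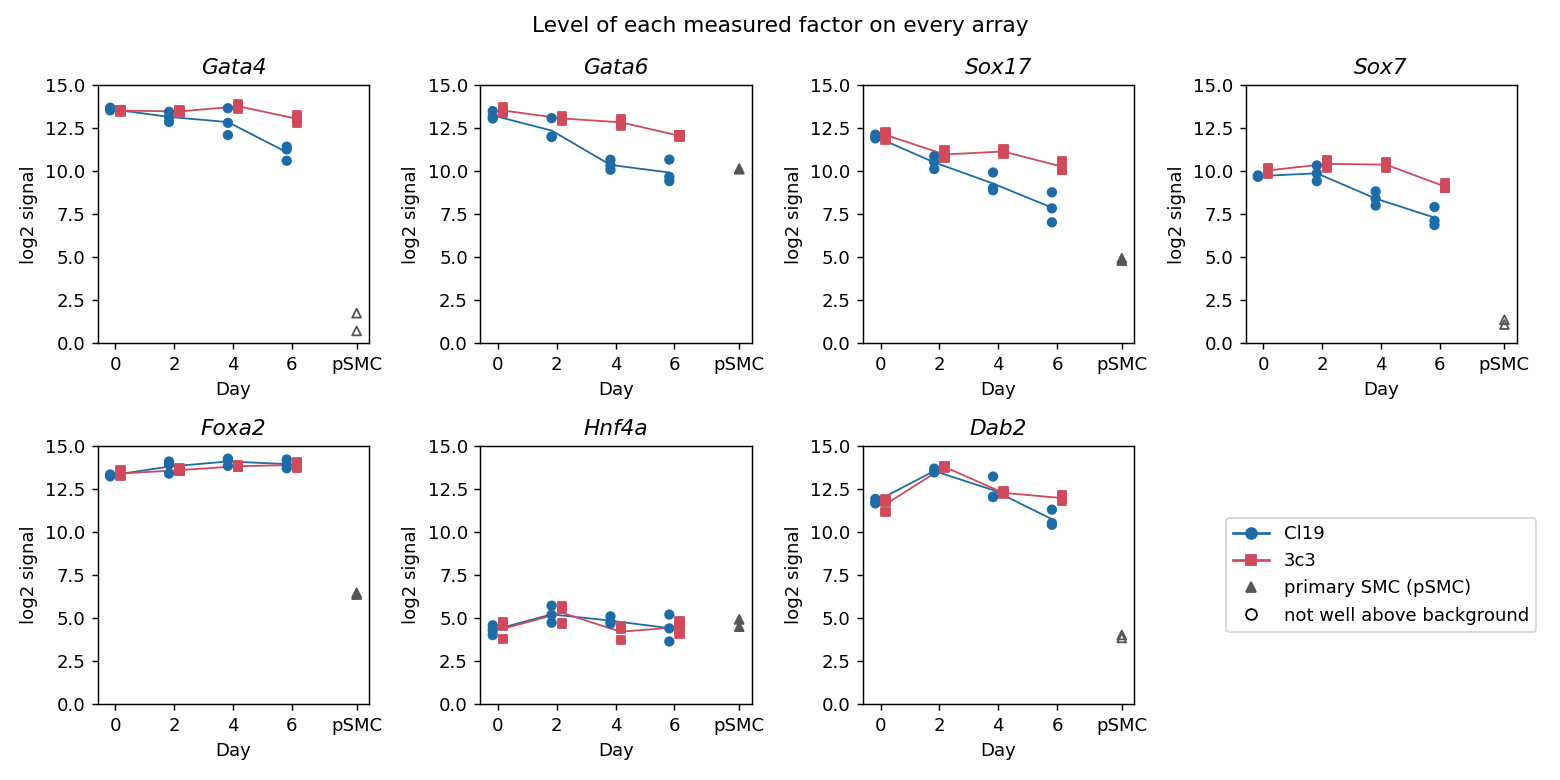
Level of each measured factor (log2 signal, vertical axis) by day of differentiation in Cl19 (circles) and 3c3 (squares) and in primary SMC (triangles), 1 point per array and a line through the means of 3 arrays; open points were not well above background. Among the rMAPC arrays, *Gata6*, *Sox17* and *Sox7* fall further in Cl19, *Gata4* is lowest on d6 in Cl19, *Dab2* peaks on d2 in both lines and *Foxa2* stays between 13.22 and 14.25.

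Over time, 6 of the 7 measured factors changed in Cl19 (F-test in limma, adjusted p under the threshold of 0.05) and 4 in 3c3, where 54.3% and 50% of all probes did. The exception in Cl19 was *Hnf4a* (adjusted p = 0.14). In 3c3, *Dab2* (1e-05), *Sox7* (0.00063), *Sox17* (0.00093) and *Gata6* (0.0017) passed, while *Hnf4a* (0.067), *Foxa2* (0.069) and *Gata4* (0.22) did not. Over 8 other settings the count ran from 5 to 7 in Cl19 and from 4 to 6 in 3c3. *Foxa2* in Cl19 did not pass with the 75th percentile (0.25), and *Hnf4a* passed under 3 of the 8 in Cl19 and 4 of the 8 in 3c3, where *Gata4* and *Foxa2* each passed under 2.

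*Gata6*, the early regulator of the lineage, fell in both lines and further in Cl19. In Cl19 its level was 13.07, 12.01 and 11.98 on d2, 10.66, 10.34 and 10.08 on d4 and 9.67, 9.42 and 10.67 on d6. In 3c3 it was 13.04, 12.93 and 13.20 on d2, 13.03, 12.83 and 12.63 on d4 and 12.06, 12.07 and 12.01 on d6. The d4 and d6 arrays of Cl19 all lay below every 3c3 array, and d4 and d6 of Cl19 overlapped each other. From d0 to d6 *Gata6* was 9.91-fold lower in Cl19 (log2 -3.31 ± 0.28 SE, adjusted p = 1e-08) and 2.77-fold lower in 3c3 (-1.47 ± 0.28, 0.00024).
Between d2 and d4 the change in Cl19 was -1.99 ± 0.28 (adjusted p = 7.6e-05), and -1.63 ± 0.26 without the array that stood apart (0.00048), and from d4 to d6 it was -0.44 ± 0.28 (0.46). By d2 the level in Cl19 had dropped by 0.88 ± 0.28 (0.029), and by 1.24 ± 0.26 (0.0015) without the array that stood apart, but the call was lost without any 1 of 4 other arrays, d0 replicates 1 and 2 and d2 replicates 2 and 3 (adjusted p 0.059 to 0.15). Of the 3 other *Gata6* probes, those at positions 1320 and 2426 of its transcripts moved like the brightest, from a mean of 12.35 to 9.0 and of 12.10 to 8.69 in Cl19. The probe at position 1561 was dim, well above background on 14 of the 26 arrays.

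*Gata4*, its close relative, was lower by d6 in Cl19. In Cl19 it was 13.44, 12.85 and 13.14 on d2, 13.65, 12.09 and 12.80 on d4, and 11.26, 10.60 and 11.42 on d6. In 3c3 it was 13.46, 13.40 and 13.52 on d2, 13.60, 13.90 and 13.78 on d4 and 12.81, 13.08 and 13.22 on d6. All Cl19 d6 arrays were below all other rMAPC arrays, while d4 of Cl19 spread from the d0 level to 12.09. The d2 difference in Cl19 did not pass with the array that stood apart (-0.46 ± 0.30, 0.31) or without it (-0.61 ± 0.34, 0.22). On d4 the difference in Cl19 was -0.76 ± 0.30 and passed narrowly (0.046), but it passed in only 8 of 26 fits that left out 1 array and was -0.38 (0.30) without Cl19 d4 replicate 2. From d0 to d6 *Gata4* was 5.71-fold lower in Cl19 (-2.51 ± 0.30, adjusted p = 9.8e-07), with a fall of 1.76 ± 0.30 between d4 and d6 (adjusted p = 0.0014). In 3c3 the difference was -0.48 ± 0.30 and did not pass (0.21), although it passed with scaling by the 75th percentile (-0.83, 0.025) and in a fit of the 12 arrays of 3c3 alone (0.017).

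The SoxF factors both fell. *Sox17*, which drives the endoderm programme downstream of the GATA factors, started at 11.99, 11.90 and 12.12 in Cl19 and reached 10.86, 10.12 and 10.54 on d2, 9.92, 8.89 and 9.03 on d4, and 7.84, 7.03 and 8.77 on d6. In 3c3 it started at 12.22, 11.83 and 12.25 and was at 10.80, 10.89 and 11.21 on d2, 11.26, 11.13 and 11.02 on d4, and between 10.08 and 10.59 on d6. Every d2 array lay below every d0 array in both lines, and in Cl19 each later day lay below the day before it. The change from d0 to d6 was a 17.4-fold fall in Cl19 (-4.12 ± 0.32, adjusted p = 4e-09), the largest of the 7 genes there, and a 3.59-fold fall in 3c3 (-1.84 ± 0.32, 0.00011).
By d2 *Sox17* had dropped by 1.5 ± 0.32 in Cl19 (0.0021), by 1.67 ± 0.36 without the array that stood apart (0.0019), and by 1.13 ± 0.32 in 3c3 (0.018). The 3c3 call on d2 was lost without 3c3 d0 replicate 1 or 3 or d2 replicate 1 or 2 (adjusted p 0.056 to 0.069). A second *Sox17* probe, at transcript position 1929 against 1405 for the brightest, was not well above background on any array.

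*Sox7* behaved differently at the start. It was at 9.70, 9.75 and 9.67 on d0 in Cl19 and 10.33, 9.87 and 9.42 on d2, then 8.82, 8.40 and 8.0 on d4 and 6.87, 7.12 and 7.92 on d6. In 3c3 it was 9.85, 10.12 and 10.15 on d0, 10.22, 10.62 and 10.43 on d2, 10.49, 10.43 and 10.21 on d4 and 9.29, 9.02 and 9.01 on d6. No change had passed by d2 (0.17 ± 0.25 in Cl19, adjusted p = 0.72, and 0.38 ± 0.25 in 3c3, 0.34), and without the array that stood apart the Cl19 value was -0.06 ± 0.26 (0.92). By d6 it was 5.30-fold lower in Cl19 (-2.41 ± 0.25, 1.6e-07) and 1.91-fold lower in 3c3 (-0.94 ± 0.25, 0.0044), with the fall of 3c3 lying between d4 and d6 (-1.27 ± 0.25, 0.0034). Without the 4 arrays of the slide with the higher background, the d6 difference in 3c3 was -0.83 and no longer passed (0.065). The second probe, whose bases span the gap, went from a mean of 5.58 to 3.16 in Cl19 and from 5.94 to 4.99 in 3c3, which passed in Cl19 (-2.42 ± 0.54, 0.00086) and not in 3c3 (-0.95 ± 0.54, 0.16).

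*Foxa2*, the forkhead factor that was measured, was higher on d6. It was at 13.22, 13.33 and 13.27 on d0 in Cl19 and at 13.91, 13.69 and 14.20 on d6, and at 13.60, 13.31 and 13.24 on d0 in 3c3 and 14.04, 13.92 and 13.69 on d6. All d6 arrays lay above all d0 arrays of their line. It was 1.58-fold higher on d6 in Cl19 (0.66 ± 0.17, adjusted p = 0.0031) and 1.41-fold higher in 3c3 (0.50 ± 0.17, 0.022).
The direction stayed, but the calls depended on the scaling: with the 75th percentile the rises were 0.27 (0.20) in Cl19 and 0.11 (0.65) in 3c3, and with the authors' values without normalization the 3c3 rise was 0.42 (0.053). On d2 *Foxa2* was higher in Cl19 by 0.51 ± 0.17 (0.037), and by 0.72 ± 0.16 (0.003) without the array that stood apart, but this call was lost without any 1 of the 5 other Cl19 arrays of d0 and d2 (adjusted p 0.071 to 0.20). The d6 call in 3c3 was lost without d0 replicate 2 or 3 or d6 replicate 1 or 2 (0.058 to 0.086). *Foxa1* gave no measurable signal, its values lying between 0.21 and 1.97.

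*Hnf4a*, a nuclear receptor of visceral endoderm and liver, was dim. Its brightest probe was at 4.31, 4.01 and 4.58 on d0 in Cl19 and averaged 5.22 ± 0.50 (SD) on d2, 4.85 ± 0.22 on d4 and 4.41 ± 0.78 on d6. In 3c3 the means were 4.38 ± 0.51, 5.31 ± 0.55, 4.21 ± 0.42 and 4.48 ± 0.36. The 8 groups overlapped in a chain from the highest to the lowest mean. The d2 differences were 0.91 ± 0.37 in Cl19 (0.087) and 0.93 ± 0.37 in 3c3 (0.089) and did not pass, but both passed with the slide as a block (adjusted p = 0.0033 each). Without the array that stood apart the Cl19 value was 0.92 ± 0.43 (0.13).
The second probe, spotted 10 times on the array, passed on d2 in both lines. Its mean went from 4.63 ± 0.13 to 5.90 ± 0.47 in Cl19 (1.27 ± 0.38, adjusted p = 0.020) and from 4.03 ± 0.14 to 6.02 ± 0.45 in 3c3 (1.98 ± 0.38, 0.00084). Its Cl19 d2 values were 6.16, 5.35 and 6.18, the first from the array that stood apart, and all lay above the highest d0 value of 4.77, but without that array the Cl19 rise was 1.13 ± 0.43 and no longer passed (0.061). By d6 it was back at 3.87 ± 0.68 and 4.58 ± 0.32, with -2.03 ± 0.38 against d2 in Cl19 (0.00035; -1.89 ± 0.43 and 0.0028 without that array) and -1.44 ± 0.38 in 3c3 (0.0077). The 2 probes thus ran the same way on d2 and parted in whether the change passed.

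*Dab2* rose and then fell. In Cl19 it was at 11.69, 11.91 and 11.65 on d0, 13.67, 13.45 and 13.48 on d2, 13.21, 12.04 and 12.02 on d4 and 10.51, 10.41 and 11.29 on d6. In 3c3 it was at 11.14, 11.77 and 11.90, then 13.82, 13.74 and 13.75, then 12.34, 12.26 and 12.19, and then 11.78, 12.10 and 12. The d2 arrays of both lines lay above every array of the other days. The rise by d2 was 3.45-fold in Cl19 (1.79 ± 0.27, adjusted p = 6.2e-05) and 4.48-fold in 3c3 (2.16 ± 0.27, 8.6e-06). Without the array that stood apart the Cl19 rise was 1.72 ± 0.30 (0.00032).
From d2 to d6 *Dab2* dropped by 2.80 ± 0.27 in Cl19 (2.5e-07), by 2.73 ± 0.30 without the array that stood apart (3.3e-06), and by 1.81 ± 0.27 in 3c3 (8.3e-05). Cl19 thereby ended 2.02-fold below its d0 level (-1.01 ± 0.27, 0.0034), and 3c3 ended 0.36 ± 0.27 from its own, which did not pass (0.29).

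**Figure D2:**
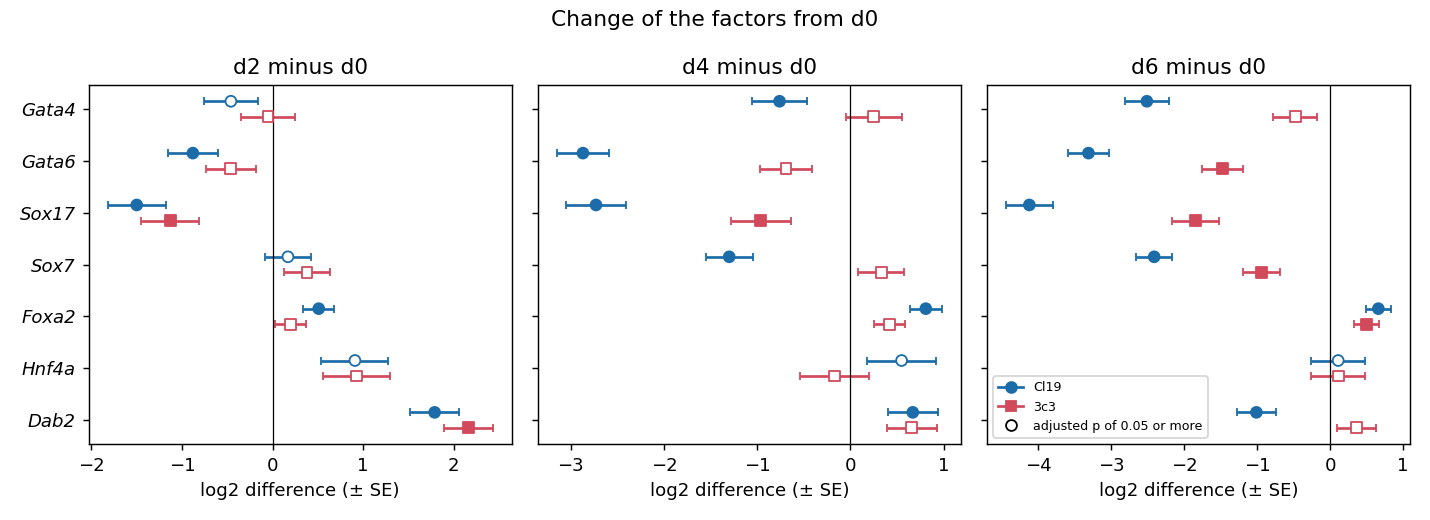
Change of each measured factor from d0 on d2, d4 and d6 (log2 difference with its standard error from limma, horizontal axis) in Cl19 (circles) and 3c3 (squares); open points did not reach the threshold. *Sox17* lies to the left of 0 on every day in both lines, *Dab2* to the right on d2 (1.79 and 2.16), and *Foxa2* to the right throughout.

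Counted over the 7 measured genes, d2 against d0 gave 2 higher and 2 lower in Cl19, where 11.2% of all probes were higher and 11.5% lower, and 1 higher and 1 lower in 3c3, against 9.8% and 9.27%. Without the array that stood apart the Cl19 counts were again 2 and 2. On d4 the counts were 2 higher and 4 lower in Cl19 (20.2% and 27.1% of all probes) and 0 higher and 1 lower in 3c3 (14.8% and 22.2%). Of the 6 in Cl19, *Gata4* (above) and *Dab2* (0.67 ± 0.27, adjusted p = 0.045) lay close to the threshold: *Dab2* passed in 11 of 26 fits that left out 1 array and under 4 of 8 other settings. *Foxa2* (0.81 ± 0.17, 0.00068) did not pass with the 75th percentile (0.39, 0.066). In 3c3 *Sox17* (-0.96 ± 0.32, 0.025) passed in 22 of the 26 fits. It was lost without 3c3 d0 replicate 1 or 3 or d4 replicate 2 or 3 (adjusted p 0.056 to 0.076). Without the whole slide of 3c3 replicate 3 it did not pass either (-0.83, 0.19). On d6, 1 gene was higher and 5 were lower in Cl19 (22% and 30.3%), and 1 was higher and 3 were lower in 3c3 (19.7% and 28.6%). Between d2 and d6 none was higher and 5 were lower in Cl19 (15.2% and 18.1%), and none was higher and 3 were lower in 3c3 (12% and 15.5%). The median d6 change of the 7 genes was -2.41 in Cl19 and -0.48 in 3c3, beside -0.20 and -0.21 over all probes. The median over all probes was 0.10 in Cl19 and 0.09 in 3c3 without normalization between arrays, and the 5 falls in Cl19 and the 3 in 3c3 passed under that setting too.

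Because the cells were measured in bulk, fewer cells of a type and less RNA per cell cannot be told apart. The summed signal of 6 smooth muscle markers with a probe went from 10.84 to 11.12 on d0 to between 15.90 and 16.16 on d6 in Cl19, and from 10.49 to 10.71 to between 14.82 and 15.49 in 3c3 (log2 of the sum, range over 3 arrays). Well above background on every array were 4 and then 5 of the 6 in Cl19, and 4 at both times in 3c3. The brightest on d6 was *Tagln* (mean 15.85 in Cl19 and 14.78 in 3c3), and *Cnn1*, *Smtn*, *Lmod1* and *Des* also rose in both lines. *Myocd* did not rise (0.05 ± 0.32, limma, adjusted p = 0.92, and -1.20 ± 0.32, 0.004). It was well above background on 1 Cl19 d6 array, no 3c3 d6 array and both primary SMC arrays. The summed signal of 5 stromal markers went from 5.94 to 6.24 to between 13.04 and 13.77 in Cl19, with 1 and then 3 of the 5 well above background on every array. In 3c3 it went from 5.76 to 6.50 to between 8.36 and 10.79, with 1 of the 5, *Col1a1*, at both times. *Thy1* and *Pdgfrb* of that list were not well above background on any rMAPC array. Other summed signals moved as well, each set mostly by its brightest genes. That of 6 trophoblast markers went from 8.28 to 8.98 on d0 to between 15.48 and 16.05 on d6 in Cl19, with 3 and then 5 well above background on every array, and from 10.47 to 10.82 to between 11.25 and 13.38 in 3c3, with 3 at both times. That of 5 cardiomyocyte markers went from 10.07 to 10.16 to between 12.11 and 13.75 in Cl19 and from 8.70 to 9.27 to between 9.72 and 10.56 in 3c3, with 2 and then 3 of the 5 in Cl19 and 2 in 3c3 well above background.
That of 2 neural crest markers went from 4.18 to 4.57 to between 10.19 and 12.13 in Cl19 and from 3.64 to 5.11 to between 7.5 and 9.39 in 3c3, with 1 of the 2, *Sox10*, well above background on every array throughout. That of 6 endothelial markers went down in Cl19, from 7.93 to 8.2 to between 5.83 and 6.44. Of the 6, 5 and then 2 were well above background on every array. In 3c3 it went from 7.2 to 7.47 to between 7.56 and 7.79, with 5 and then 3. That of 4 hepatocyte markers went up in 3c3, from 4.67 to 5.81 to between 8.38 and 8.97. Only *Fga* of these was well above background on every 3c3 array of d0 and d6. *Fga* rose there by 3.96 ± 0.42 (limma, adjusted p = 3.7e-07), while *Serpina1* and *Cyp2e1* did not pass (0.46 and 0.41). Defining markers that were not well above background on any array were *Elf5* of trophoblast, *Tbx5* of heart, *Alb* of liver and *Hbb* of red blood cells. On Cl19 d6 *Krt7* of the trophoblast list was at a mean of 15.68, after 4.76 on d0. *Cdx2* and *Gata3* rose there to 4.01 and 4.99, while *Tfap2c* and *Hand1* did not pass (limma, adjusted p = 0.15 and 0.66). In 3c3 *Krt7* rose by 7.99 ± 1.14 and *Cdx2* by 3.49 ± 0.35 from d0 to d6, and *Gata3* did not pass (0.37). *Tfap2c* (-2.03 ± 0.81, 0.045) and *Hand1* (-1.53 ± 0.51, 0.018) fell in 3c3. *Tnnt2* of the cardiomyocyte list went from 9.96 to 12.98 in Cl19 and *Nkx2-5* also rose, while *Myh6* and *Actn2* did not pass (0.15 and 0.83). The part of these other marker genes in the falls was not tested.

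The question whether the lines differed was put to the change itself, as the change in Cl19 minus that in 3c3. On d6, 5 of the 7 factors differed, all further down in Cl19, where 17.4% of all probes differed in either direction. The difference was -2.28 ± 0.46 for *Sox17* (adjusted p = 0.0014), -2.03 ± 0.43 for *Gata4* (0.002), -1.84 ± 0.40 for *Gata6* (0.0025), -1.47 ± 0.35 for *Sox7* (0.006) and -1.37 ± 0.38 for *Dab2* (0.015). These 5 calls held without any 1 of the 26 arrays, the highest adjusted p being 0.049 for *Dab2*. *Foxa2* (0.16 ± 0.24, 0.78) and *Hnf4a* (0.00 ± 0.52, 1) did not pass.
On d2 none of the 7 passed, where 0.323% of all probes did, and the differences lay between -0.42 ± 0.40 for *Gata6* and 0.32 ± 0.24 for *Foxa2*. Without the Cl19 d2 array that stood apart they ran from -0.77 (*Gata6*, 0.34) to 0.52 (*Foxa2*, 0.28). On d4, a comparison added after the d6 differences had been seen, 3 of the 7 passed, where 14.4% of probes did: *Gata6* by -2.18 ± 0.40 (0.00083), *Sox7* by -1.63 ± 0.35 (0.0035) and *Sox17* by -1.76 ± 0.46 (0.012). *Gata4* differed by -1.0 ± 0.43 on d4 (0.14) and by -1.41 without Cl19 d4 replicate 1, which passed (0.014). *Dab2* had a difference of 0.02 ± 0.38 on d4 (0.99), and its difference between the lines passed on d6 and not on d2 or d4.

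**Figure D3:**
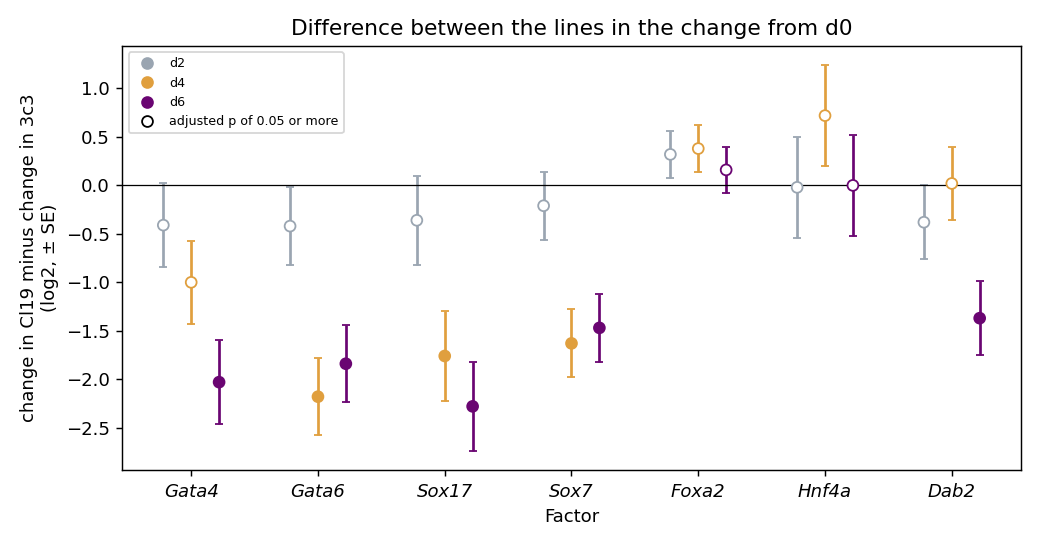
Change from d0 in Cl19 minus the change in 3c3 for each measured factor on d2, d4 and d6 (log2 difference with its standard error, vertical axis; open points did not reach the threshold). The d2 points lie between -0.42 and 0.32 and include the Cl19 d2 array that stood apart. Without it *Gata6* was at -0.77 and *Foxa2* at 0.52. On d6 *Gata4*, *Gata6*, *Sox17*, *Sox7* and *Dab2* lie between -2.28 and -1.37.

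Primary SMC held little of most factors. Against d6, 5 of the 7 genes were lower in primary SMC than in Cl19 and 6 were lower than in 3c3, while none was higher, where 38.6% and 38.1% of all probes were lower and 32.8% and 33.4% higher. *Foxa2* was at 6.36 and 6.46 in primary SMC, 183.9-fold below Cl19 d6 (-7.52 ± 0.19, adjusted p = 2.1e-17) and 177.6-fold below 3c3 d6 (-7.47 ± 0.19, 2.2e-17). *Sox17* was at 4.81 and 4.94, 8.02-fold below Cl19 d6 (-3.0 ± 0.36) and 41.7-fold below 3c3 d6 (-5.38 ± 0.36). Both *Sox17* differences kept their direction and passed under all 7 other settings. Their size depended on the setting, from -5.13 to -1.41 against Cl19 d6 and from -7.39 to -2.75 against 3c3 d6. The smallest sizes came from averaging with the second *Sox17* probe, which was not well above background on any array.
*Gata4*, *Sox7* and *Dab2* were not well above background on either primary SMC array, so that their folds are bounds, set against the lowest signal that counted as well above background on the array, or the value of the probe itself where that was larger. *Gata4* was at least 159.9-fold higher in Cl19 d6 and at least 613.3-fold higher in 3c3 d6. *Sox7* was at least 11.5-fold and 40.3-fold higher, and *Dab2* at least 111.7-fold and 261.0-fold higher.
*Gata6*, which is also used in vascular smooth muscle, depended on the normalization between arrays. Its brightest probe was at 10.11 and 10.14 in primary SMC, between the 3 values of Cl19 d6 (0.21 ± 0.31, 0.56), and 3.78-fold below 3c3 d6 (-1.92 ± 0.31, 1.8e-05). The probe at position 1320 was at 8.41 and 8.31, below its Cl19 d6 values (8.43 to 9.76). That at position 2426 was at 8.80 and 8.86, within its Cl19 d6 values (8.33 to 9.32). With the deposited values, not normalized between arrays, the brightest probe was lower than in both, with differences of -2.08 (2.3e-06) and -4.13 (8.1e-11). The brightest *Hnf4a* probe did not differ past the threshold in either comparison (0.30 ± 0.41 and adjusted p = 0.53, 0.23 ± 0.41 and 0.64), but with the deposited values it was lower in both (-1.89, 0.00012, and -1.80, 0.00021). The second *Hnf4a* probe was not well above background in primary SMC and was lower than in Cl19 d6 (-1.39 ± 0.42, 0.0063) and 3c3 d6 (-2.10 ± 0.42, 0.00019). All 7 genes were thus lower in both comparisons with the deposited values. Those values keep the brightness of the whole array, and the primary SMC arrays were dimmer, with median log2 signals of 1.625 and 1.849. The medians were 3.308 to 3.994 on Cl19 d6 and 3.463 to 3.566 on 3c3 d6. The part of this offset in the lower values of *Gata6* and *Hnf4a* was not tested.

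Relatives of 1 family did not move by equal amounts. Within each array, the value of the *Gata6* probe was taken from that of *Gata4*, and that of *Sox7* from that of *Sox17*, and the change of this difference from d0 to d6 was averaged over the lines. A factor common to a whole array cancels in it, but quantile normalization does not cancel fully. With the deposited values the mean change was 0.83 for the GATA pair and -1.40 for the SoxF pair. For the GATA pair the difference lay between -0.15 and 0.56 on the 6 d0 arrays and between 0.75 and 1.59 on the 6 d6 arrays, so *Gata6* fell further than *Gata4* by 0.89 (0.80 in Cl19 and 0.99 in 3c3).
For the SoxF pair it lay between 1.71 and 2.45 on d0 and between -0.09 and 1.30 on d6, so *Sox17* fell further than *Sox7* by 1.31 (mean change -1.31, with -1.72 in Cl19 and -0.91 in 3c3). Neither pair's d0 and d6 arrays overlapped. Both gave p = 0.005 in a two-sided exact permutation test over 400 arrangements of d0 and d6 within the lines, which is the smallest p this design allows, and 0.005 after adjustment over the 2 pairs. The FoxA pair could not be compared without *Foxa1*.

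**Figure D4:**
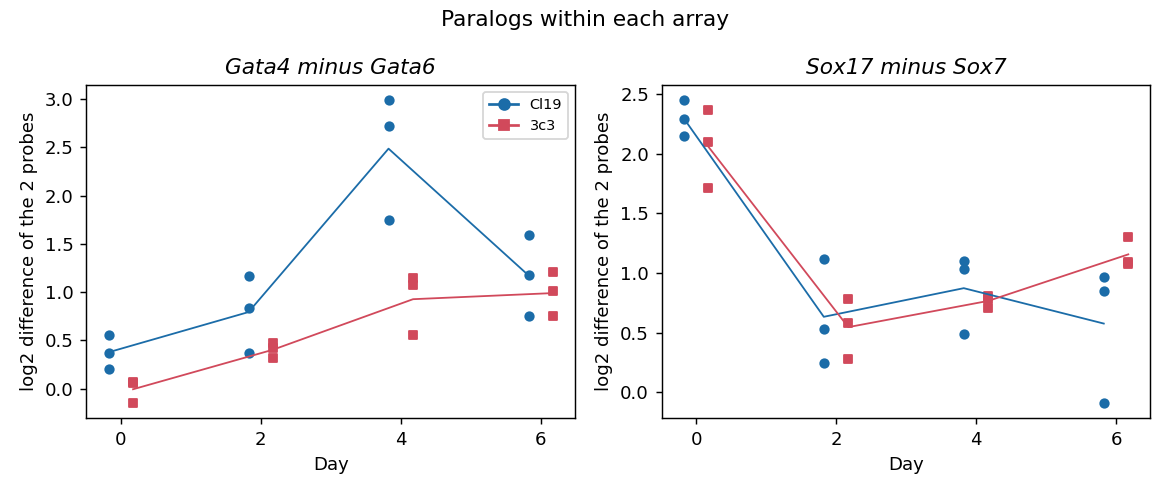
Within-array log2 difference between the probes of *Gata4* and *Gata6* and of *Sox17* and *Sox7* (vertical axis) by day in Cl19 (circles) and 3c3 (squares), 1 point per array and lines through the means. All d6 points of the GATA difference lie above its d0 points, and all those of the SoxF difference lie below.

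Of 6 other GATA, SoxF and FoxA genes, 5 had a probe and were measured. *Foxa3*, the forkhead relative used in gut and liver, had no d0 array with a signal well above background and was at 8.16 ± 0.53 (SD) in Cl19 d6 and 7.43 ± 0.23 in 3c3 d6, at least 55.8-fold and 27.1-fold higher (adjusted p = 1.3e-10 and 5.4e-10). *Gata1*, known from red blood cells, went from a mean of 8.71 to 3.48 in Cl19 (-5.23 ± 0.46, 1.9e-08) and from 8.28 to 6.66 in 3c3 (-1.63 ± 0.46, 0.0067). *Gata3*, a trophoblast and T cell factor, was well above background on all 3 Cl19 d6 arrays, at least 6.20-fold above d0 (2.3e-07), while no 3c3 array of d0 or d6 reached that level.
*Gata2* rose from 3.20 to 4.67 in Cl19 (1.47 ± 0.43, 0.0075), with 0.72 ± 0.43 in 3c3 (0.19). *Sox18*, the third SoxF gene, was at 3.77 to 4.36 in all rMAPC groups and changed in neither line past the threshold (0.45 and 0.91).

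The other genes of the endoderm programme did not fall as a whole. Among 12 visceral endoderm products and uptake receptors, 7 were higher and 3 lower on d6 in each line, with a median change of 5.33 in Cl19 and 4.38 in 3c3 (3.75 with dim values raised to the array's lowest signal well above background). Over all 11109 genes tested with 1 probe each, 26.1% were higher and 31.4% lower in Cl19 and 23.7% and 29.4% in 3c3, with medians of -0.14 and -0.12. For *Apob*, which packages lipid into particles, the d6 level was at least 1933.9-fold above d0 in Cl19 and 15.9-fold in 3c3 as a lower bound. *Apoa1*, of high-density lipoprotein, rose by 6.07 ± 0.49 in Cl19 and at least 854.2-fold in 3c3, and *Ttr*, a thyroid hormone carrier, by 6.83 ± 0.89 and 7.89 ± 0.89.
The 3 that fell, named after their values were seen, were *Amn* and *Cubn*, which form the cubam uptake receptor, and the ligand *Ihh*. The change of *Cubn* was -4.93 ± 0.45 in Cl19 and -2.06 ± 0.45 in 3c3.

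Parietal endoderm and its basement membrane split by line. In Cl19, 2 of 12 measured genes were higher and 9 lower (median -2.32), and in 3c3 2 were higher and 1 was lower (median -0.13). *Thbd*, a thrombin receptor, fell in both (-5.77 ± 0.46 and -1.66 ± 0.46), while *Plat*, the tissue plasminogen activator, and *Fst*, an activin antagonist, rose in both (*Plat* by 6.97 and 6.59, *Fst* by 1.61 and 2.11). The laminin gene *Lama1* (-6.78 ± 0.52) and the collagen gene *Col4a1* (-2.40 ± 0.19) fell in Cl19, with -0.97 ± 0.52 (adjusted p = 0.13) and -0.26 ± 0.19 (0.30) in 3c3. Tested on the change itself, *Lama1* (-5.81 ± 0.74, 1.5e-05) and *Col4a1* (-2.14 ± 0.27, 1.8e-05) differed between the lines.

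Among partner regulators, 4 of 10 were tested, and 2 were higher in Cl19 and 3 in 3c3 with none lower. *Otx2* rose from 6.78 to 14.45 in Cl19 and from 5.89 to 10.90 in 3c3, and *Hhex* by 3.68 ± 0.40 and 2.68 ± 0.40. Of 6 FGF and PDGF signalling genes tested, the split was 1 higher and 2 lower for Cl19 against 2 higher and 3 lower for 3c3. *Pdgfra*, a receptor that marks primitive endoderm, fell by nearly equal amounts (-1.93 ± 0.16 and -1.77 ± 0.16), and its line difference of -0.16 ± 0.22 did not pass (0.75). *Spry2* fell (-1.74 and -1.10), and *Dusp6*, a feedback phosphatase of ERK, rose (4.09 and 4.72).
Anterior visceral endoderm had 3 measured genes, of which 2 were higher in Cl19, and 1 was higher and 1 lower in 3c3. *Lhx1* was higher in both, by 5.71 ± 0.76 in Cl19 and at least 59.2-fold in 3c3. All 4 measured mesendoderm genes were higher in both lines. *Nodal* rose by 5.80 and 4.23. *Cxcr4* rose by 8.53 and 4.95 as fitted, well above background on d0 on 1 array of Cl19 and 2 of 3c3. *Mixl1* was at least 100.8-fold higher in Cl19 and 4.80-fold higher in 3c3.

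**Figure D5:**
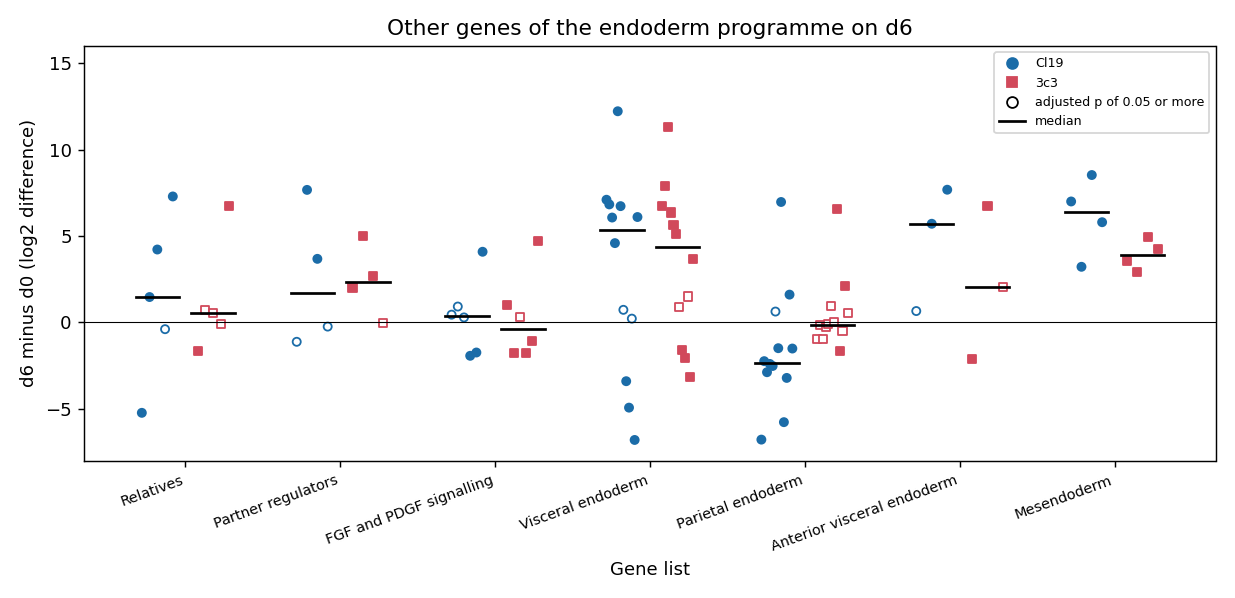
Change from d0 to d6 (log2 difference, vertical axis) of the measured genes of 7 endoderm lists in Cl19 (circles) and 3c3 (squares), with the list median as a bar; open points did not reach the threshold, and values of genes that were dim on d0 are fitted values. Visceral endoderm genes lie mostly above 0 in both lines, and parietal endoderm genes lie below 0 in Cl19 with a median of -2.32.

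The genes whose means followed each factor most closely over the 8 line and day groups were sought among 11102 tested genes with a symbol, the members left out. Pearson's r is a description here, since groups of a line share slides. *Gata6* was followed by *Aifm2* (0.997), *Fkbp6* (0.993) and *Ddx4* (0.992), *Gata4* by *Ptger3* (0.987), *Rere* (0.978) and *Ppfibp2* (0.978), *Sox17* by *Tmed7* (0.995) and *Ppm1k* (0.992), and *Sox7* by *Tmem181* (0.990), *Apobec1* (0.989) and *Azin1* (0.989). *Foxa2* was followed by *Bex1* (0.995), *Npepps* (0.989) and *Crispld2* (0.989), and *Dab2*, with its peak on d2, by *Tmem218* (0.972), *Tsx* (0.969) and *Nedd9* (0.966). Likeness here is of shape and not of size: from d0 to d6 *Crispld2* rose by 10.17 in Cl19 and 7.92 in 3c3 and *Npepps* by 1.16 and 1.12.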

How the data were processed

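Total RNA of 24 rMAPC and 2 primary SMC samples was hybridised to 1-colour Agilent rat arrays and read with Agilent Feature Extraction 10.1.1.1, per the submitters' processing notes. The authors deposited scanner files, whose processed signal is a background-corrected intensity, and a table of log2 values. The deposited log2 table equalled log2 of that intensity (largest difference 5.2e-14) and was not normalized between arrays.

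After quantile normalization of the log2 gene features over all arrays, outlier features were left out and those of 1 probe averaged, giving 41012 probes. A probe was tested (24442 in all) if some group had it well above background on all its arrays, and the test was made in 1 limma fit over 9 groups (limma 3.58.1, R 4.3.3) with Benjamini-Hochberg adjustment at 0.05. SE is limma's, and SD is over arrays. The steps were tested on simulated data: mean estimates lay close to the changes put in and false calls were rare, but part of the changes was not called, the small ones more often than the large ones, and a first criterion on the share recovered was not met and was replaced by one on bias and false calls. The study's methods call the arrays of a line and day biological replicates. Each line is 1 clone, so p-values measure the spread between samples of that clone, and the number of arrays limits the precision.

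Each replicate number within a line was 1 slide, which held its 4 days. Arrays of a slide deviated together in 18 of 18 pairs in 3c3 (r 0.20 to 0.75) and 16 of 18 in Cl19 (0.06 to 0.49).

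The members and lists were chosen with earlier results of these data known. Named genes were the members, the measured relatives, up to 3 genes per list with the largest mean d6 change among those past the threshold in both lines, marker genes beside a result, and the 3 closest genes per member, 1 of which is not reported here. Alternatives were scaling by the 75th percentile, the deposited table as it stands, normexp (offset 50), no filter or a floor on dim probes, the slide as a block, a fit per line, all probes of a gene, the methods' t-test, and leaving out arrays.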

Additional observations from a re-analysis of the deposited data

Results flagged for a closer look

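The change from d0 differed between Cl19 and 3c3 for 5 of the 7 measured factors on d6 and for 3 on d4, each time further down in Cl19, in the limma test of the difference itself. On d6 the differences in log2 change were -2.03 for *Gata4*, -1.84 for *Gata6*, -2.28 for *Sox17*, -1.47 for *Sox7* and -1.37 for *Dab2*. On d4, a comparison chosen after seeing the data, they were -2.18 for *Gata6*, -1.76 for *Sox17* and -1.63 for *Sox7*. Each line is 1 clone, so clone, donor age and line cannot be told apart.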

How the results depend on the processing

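For the differences between days, lines and primary SMC, 4396 values of single factors were computed under the alternatives, of which 4237 kept their side of the threshold and any called direction, 93 no longer passed, 62 came to pass and 4 turned. All 4 were against primary SMC: with the deposited values *Gata6* was -2.08 in place of 0.21 against Cl19 d6, and *Hnf4a* was -1.89 against Cl19 d6 and -1.80 against 3c3 d6, where it was also -0.93 (0.04) averaged over its probes. Most of the 4396 values came from fits that left out 1 array, often an array outside the comparison at hand. Such a fit could hardly move the result, so the share that kept its side does not measure stability. The 5 differences between the lines on d6 passed under all 7 settings tried and without any 1 of 26 arrays. Small changes were less stable. The number of factors higher on d2 in Cl19 was 1 in place of 2 with the 75th percentile, without the filter on dim probes, with a fit per line and without the slide of 3c3 replicate 3, 3 with the deposited values, the replicate block and all probes averaged, and 1 to 2 when single arrays were left out. The number lower on d2 in Cl19 was 1 in place of 2 with a fit per line and without that slide, and 1 to 2 with arrays left out. In 3c3 the number higher on d2 was 2 in place of 1 with the deposited values, normexp and all probes averaged, and 1 to 2 with arrays left out, and the number lower was 0 without that slide and 0 to 1 with arrays left out. The number higher on d6 was 0 in place of 1 in Cl19 with the 75th percentile, and in 3c3 0 with the 75th percentile, the deposited values, without that slide and with the methods' t-test after Benjamini-Hochberg adjustment, and 0 to 1 with arrays left out. The number lower on d6 than on d2 in 3c3 was 5 in place of 3 with a fit per line. On d4 in Cl19 the number higher was 0 in place of 2 with the 75th percentile and 1 without the filter, with a fit per line and without that slide, and 1 to 2 with arrays left out. On d4 in 3c3 the number higher was 2 in place of 0 with the deposited values and a fit per line and 1 with normexp and the replicate block (0 to 1 with arrays left out), and the number lower was 2 in place of 1 with the 75th percentile, the replicate block and a fit per line and 0 without that slide (0 to 2 with arrays left out). These d4 counts, and *Hnf4a*'s second probe without Cl19 d2 replicate 1, were added after seeing the data. The cause was not tested.

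With the slide as a replicate block, the number of factors higher on d2 in 3c3 was 2, since *Hnf4a* passed there (0.93, adjusted p = 0.0033) as it did in Cl19 (0.91, 0.0033). For the within-array pairs the exact permutation test within slides gave its smallest possible p, 0.0312, for both.

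*Dab2* on d6 in Cl19 no longer passed with the methods' t-test (0.053 after Benjamini-Hochberg adjustment). The d4 difference of *Sox17* between the lines was -0.63 (0.25) averaged with its probe that was never above background. Signal over background limits *Hnf4a* and the bounds for primary SMC.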
